A study of Homo sapiens with 6 samples.

Results

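The 31 genes described here code for the SREBP transcription factors with their sensors and for enzymes that make cholesterol and fatty acids. They were chosen by name from the deposited count and FPKM tables, which list 58735 genes, and all 31 had enough reads to be tested among 14179 genes. RNA was measured in H2452 cells, an established human pleural mesothelioma line grown in serum-containing medium. The 3 sgCtrl libraries, whose genotype is labelled WT, came from cells given a scrambled guide, and the 3 sg*NF2*-1 libraries, labelled NF2-KO, from cells given 1 guide against *NF2*, the gene for the Hippo pathway regulator merlin. Both groups carried Cas9 and mCherry from the same lentiviral vector and were sorted for mCherry, so each is a sorted population of transduced cells and not a single clone. The paper describes its data in general as biological replicates, but nothing in the labels says that these libraries were separate cultures. If they were not, the p-values below measure technical spread only.

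Library totals ranged from 14782423 to 17416463 counts. *NF2* itself was at 73.7, 72.9 and 67.5 CPM (counts scaled to library size with TMM factors) in sgCtrl and at 39.3, 52.0 and 41.4 CPM in sg*NF2*-1. This fall to 62.0% of sgCtrl (edgeR adjusted p = 7.9e-06) measures the transcript, not the protein or the share of edited alleles. Of 10 mesothelial and keratin markers, 9 could be tested, 3 were called higher and 3 lower, and their summed level was 3481 to 3924 CPM in sgCtrl and 3372 to 4132 CPM in sg*NF2*-1. The 3 immune and 3 lung epithelial markers each summed to at most 0.512 CPM in any library, with *PTPRC*, *NKX2-1* and *SFTPC* at 0. The endothelial pair *PECAM1* and *VWF* summed to 5.60 to 7.19 CPM in sgCtrl and 1.12 to 1.69 CPM in sg*NF2*-1. The part of these marker shifts in the results below was not tested.

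Cells keep their sterol level through a feedback loop. The SREBP proteins are made in the membrane of the endoplasmic reticulum, escorted by SCAP to the Golgi when sterol is scarce, cut there, and sent to the nucleus, where they turn on genes of cholesterol and fatty acid synthesis, while the INSIG proteins hold SCAP back when sterol is plentiful. SREBF2 acts mainly on the cholesterol route and SREBF1 mainly on the fatty acid route, and both commonly work beside the factor NF-Y at promoters.

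Loss of *NF2* was accompanied by lower transcripts of 13 of the 31 genes and a higher transcript of 1, *ACLY*, while 17 were not called. A gene was called when its adjusted p was under 0.05 in edgeR's quasi-likelihood test, with Benjamini-Hochberg adjustment over all 14179 genes. The 13 lower genes make up 41.9% of the members, against 16.6% of all tested genes called lower, and the single higher gene is 3.23% of the members against 17.7% called higher. The members were chosen with earlier results of these data known, so this contrast is a description and not an independent test. In bulk RNA a lower level per cell and fewer cells of a kind cannot be told apart. The lower genes sat at 59.6% to 82.7% of their sgCtrl mean. Their names spread over every section of the route: the sensors *INSIG1* and *INSIG2*, the first cholesterol enzymes *ACAT2* and *HMGCS1*, the late enzymes *MSMO1* and *HSD17B7*, and the fatty acid desaturases *SCD* and *FADS2*. With a log2 fold change beyond 0.5 also required, 6 members were lower and 0 higher, against 9.32% and 8.42% of all genes. At an unadjusted p under 0.05 edgeR also gave 0 higher beyond this limit, and DESeq2 called 0. The largest rise was 0.29 (*ACLY*), so a looser p threshold could not alter that 0. The 6 lower members were *INSIG1*, *STARD4*, *HMGCS1*, *HSD17B7*, *ELOVL6* and *FADS2*. In 14 members every sg*NF2*-1 library lay below every sgCtrl library, and in 4 every one lay above, while 22.2% and 23.2% of all genes did so. The median log2 fold change over the 31 genes was -0.17, compared with -0.003 over all tested genes.

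**Figure D1:**
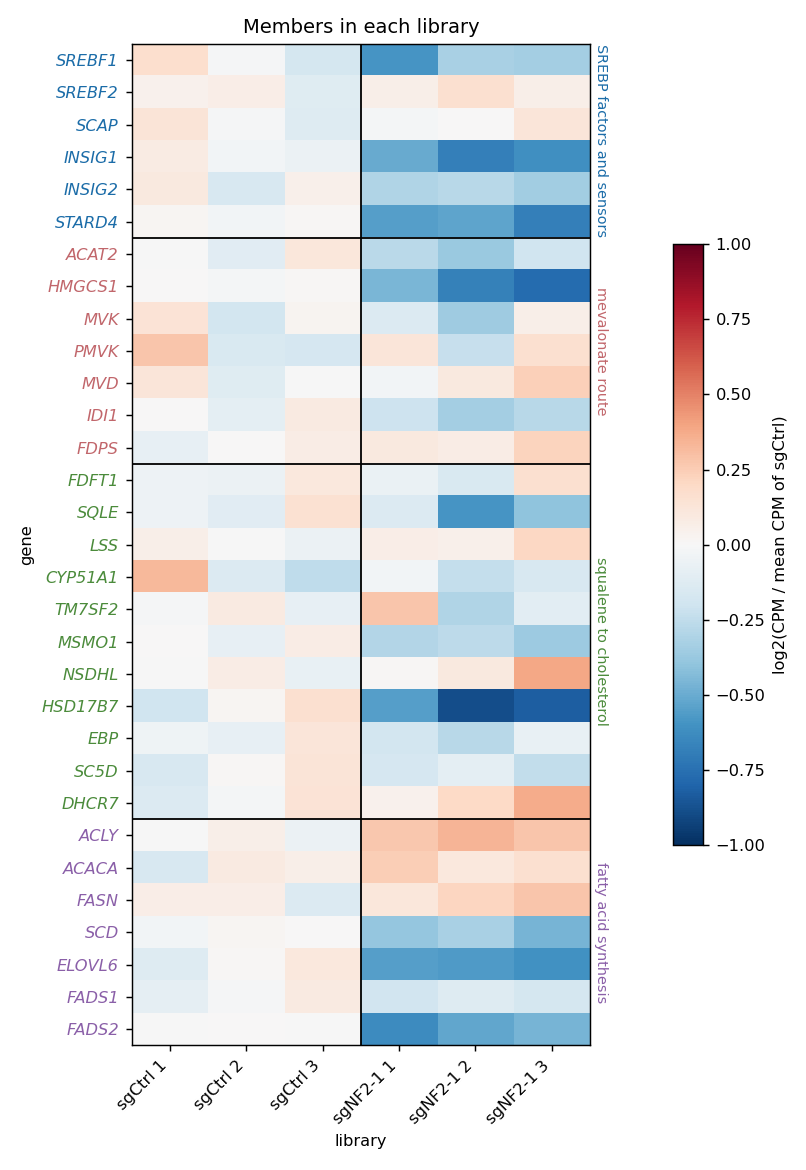
Heat map of the 31 members (rows, grouped by role) in the 6 libraries (columns). Color gives the log2 ratio of CPM to the sgCtrl mean, with blue lower and red higher; the rows of *INSIG1*, *STARD4*, *HMGCS1*, *HSD17B7*, *ELOVL6* and *FADS2* are blue in all 3 sg*NF2*-1 libraries, and that of *ACLY* is red in all 3.

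On the authors' FPKM values, which are per length of gene and per depth, limma on log2(FPKM + 1) called 12 members lower and 1 higher, against 14.1% and 14.3% of 13038 genes. *SQLE* was the gene called lower on counts but not on FPKM, with a difference of -0.33 on the log2(FPKM + 1) scale (limma adjusted p = 0.058). This scale understates the change of low genes.

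Promoter sequence was examined for the 27 members with a RefSeq entry (build GRCh38.p14). *ACAT2*, *SQLE*, *FDFT1* and *FASN* had none. In the 250 bases before each start, both strands were searched for CCAAT, the box bound by NF-Y, which reads ATTGG on the other strand, and for TCACNCCAC, the core of a sterol regulatory element. CCAAT was present in 19 of the 27 members (70.4%) and in 37% of the promoters of 27305 genes. TCACNCCAC was present in 1 member, *SREBF2*, or 3.7%, and in 1.09% of all promoters. CACGTG, an E-box, was found in 3 members (11.1%, against 7.73%), and GGAATG, the core bound by the Hippo-pathway factors of the TEAD family, in 5 (18.5%, against 14.3%), namely *STARD4*, *PMVK*, *HSD17B7*, *EBP* and *FADS2*. No matches of different motifs overlapped in a member (0 pairs). CCAAT was in 7 of the 11 lower members with an entry and in 11 of the 15 members that were not called. A match is a string of letters and not a measured binding site, and a missing match says nothing about the factor.

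Stretches around the matches are shown for *SREBF2*, the one member with both sequences, and for the called members whose CCAAT lies outside annotated exons of protein-coding genes; they were chosen after the values were seen. Each is written 5′ to 3′ along the gene, with the matches to CCAAT and TCACNCCAC in capitals; the GGAATG match of *STARD4*, on the other strand near the start of its stretch, is left in lower case.
SREBF2, chr22:41832952-41833023, plus strand: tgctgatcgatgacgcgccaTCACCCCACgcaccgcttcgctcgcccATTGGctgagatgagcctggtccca
INSIG1, chr7:155297688-155297732, plus strand: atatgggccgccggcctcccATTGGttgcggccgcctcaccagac
STARD4, chr5:111512641-111512716, minus strand: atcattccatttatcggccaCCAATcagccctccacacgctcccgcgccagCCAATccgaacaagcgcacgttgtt
HMGCS1, chr5:43313543-43313587, minus strand: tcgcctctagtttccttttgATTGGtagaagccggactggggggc
IDI1, chr10:1049212-1049354, minus strand: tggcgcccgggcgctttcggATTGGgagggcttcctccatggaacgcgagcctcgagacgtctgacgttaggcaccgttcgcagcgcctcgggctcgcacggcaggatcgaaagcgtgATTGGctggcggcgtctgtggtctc
MSMO1, chr4:165327464-165327617, plus strand: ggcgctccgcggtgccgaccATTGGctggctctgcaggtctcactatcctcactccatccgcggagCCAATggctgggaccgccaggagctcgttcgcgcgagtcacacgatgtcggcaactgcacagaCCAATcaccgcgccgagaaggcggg
HSD17B7, chr1:162790630-162790674, plus strand: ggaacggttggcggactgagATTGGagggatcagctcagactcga
SCD, chr10:100346984-100347071, plus strand: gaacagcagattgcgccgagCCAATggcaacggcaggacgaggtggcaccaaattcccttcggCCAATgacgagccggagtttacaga
ACLY, chr17:41919023-41919107, minus strand: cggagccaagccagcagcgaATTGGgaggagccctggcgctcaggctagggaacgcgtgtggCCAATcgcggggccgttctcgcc
Within these stretches *MSMO1* has 3 CCAAT boxes, *STARD4*, *IDI1*, *SCD* and *ACLY* have 2 each, and *SREBF2*, *INSIG1*, *HMGCS1* and *HSD17B7* have 1; boxes inside exons of *MSMO1*, *IDI1* and *HMGCS1* are not shown. The *SREBF2* stretch lies in an exon of the antisense RNA gene *SREBF2-AS1*.

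Among the regulators, *SREBF1* fell and *SREBF2* was not called. *SREBF1* (chr17:17810399-17837002, GRCh38), which codes for the SREBP-1 proteins, was at 262, 231 and 206 CPM in sgCtrl and at 155, 186 and 184 CPM in sg*NF2*-1. The groups did not overlap, although the sgCtrl values were spread more widely than those of most members, and the log2 fold change was -0.42 ± 0.093 (SE, n = 3 per group, edgeR adjusted p = 0.0011). *SREBF2* (chr22:41833079-41907308), which codes for SREBP-2, was at 306, 312 and 273 CPM in sgCtrl and at 310, 333 and 309 CPM in sg*NF2*-1. Its groups overlapped, and its log2 fold change of 0.094 had a 95% interval from -0.074 to 0.26. Per length, *SREBF2* exceeded *SREBF1* by 1.24, 1.44 and 1.41 times in FPKM in sgCtrl and by 2.13, 1.90 and 1.78 times in sg*NF2*-1, with no overlap between the groups. *SCAP*, the escort of both proteins, was at 70.1 ± 6.15 CPM (SD, n = 3) and 71.8 ± 3.73 CPM, with a log2 fold change of 0.033 and an interval from -0.15 to 0.22.

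The anchors that retain SCAP were lower. *INSIG1* (chr7:155297776-155310235), itself a known target of the SREBPs, was at 95.1, 88.3 and 86.0 CPM in sgCtrl and at 63.3, 56.0 and 58.8 CPM in sg*NF2*-1. That is 66.1% of sgCtrl with well-separated groups, a log2 fold change of -0.60 ± 0.087 (SE, edgeR adjusted p = 7.5e-06). *INSIG2* was at 62.2, 52.0 and 60.2 CPM in sgCtrl and at 47.3, 47.9 and 45.6 CPM in sg*NF2*-1. Its fall of -0.31 ± 0.094 (SE, edgeR adjusted p = 0.013) was not called without sgCtrl replicate 1 (edgeR adjusted p = 0.070). The FPKM ratio of *INSIG1* to *INSIG2* went from 1.68 ± 0.148 (SD, n = 3) to 1.37 ± 0.0942, with no overlap. *STARD4*, a sterol carrier that moves cholesterol between membranes, was at 86.4, 83.5 and 85.9 CPM in sgCtrl and at 58.3, 59.0 and 53.0 CPM in sg*NF2*-1. The sgCtrl values were nearly equal, and the log2 fold change was -0.59 ± 0.086 (SE, edgeR adjusted p = 7.8e-06).

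**Figure D2:**
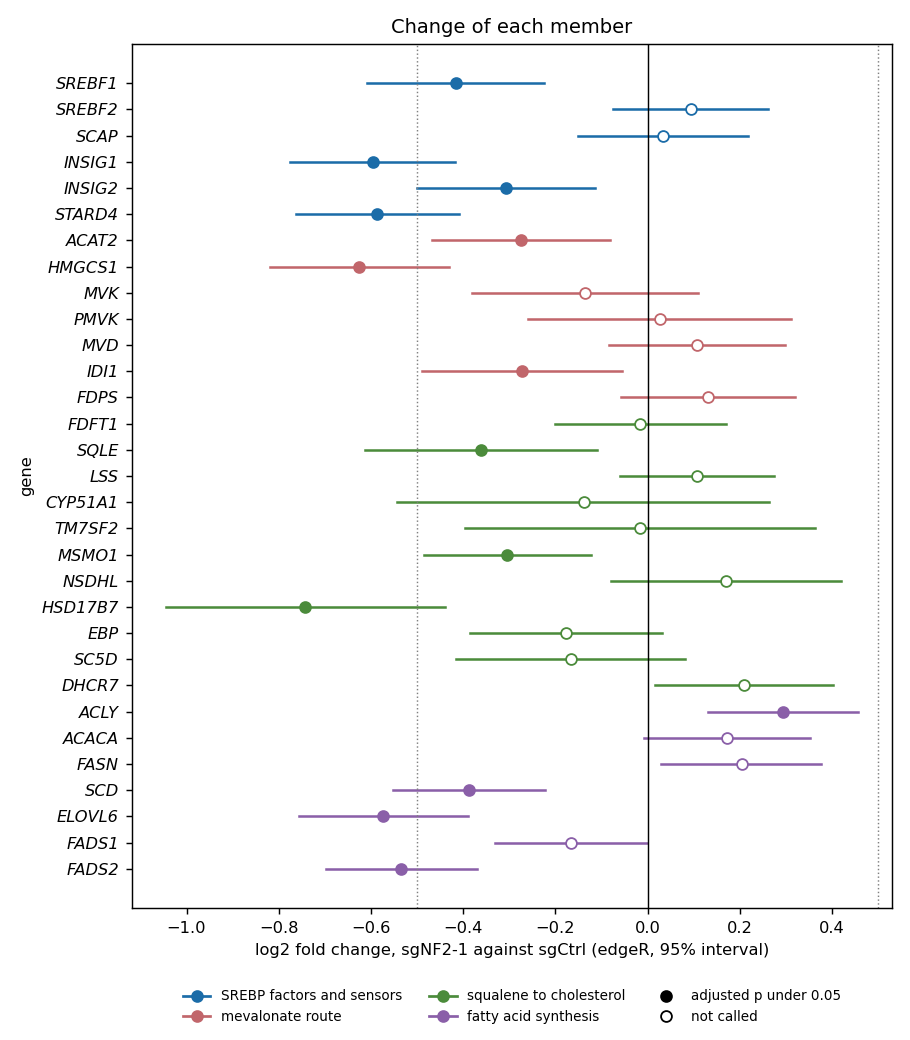
Log2 fold change of each member in sg*NF2*-1 against sgCtrl (edgeR, 3 libraries per group), with its 95% interval as a line, color for the role, filled circles for genes called at an adjusted p under 0.05 and dotted lines at -0.5 and 0.5. *HSD17B7* is farthest to the left at -0.74 and *ACLY* farthest to the right at 0.29.

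In the mevalonate route, which builds isoprenoid units from acetyl-CoA, 3 of 7 members fell and 4 were not called. Of all tested genes, 16.6% were called lower. *HMGCS1* (chr5:43289395-43313512), the cytosolic HMG-CoA synthase, was at 69.6, 68.4 and 69.9 CPM in sgCtrl and at 50.5, 43.5 and 40.6 CPM in sg*NF2*-1. It fell to 64.7% of sgCtrl, a log2 fold change of -0.63 ± 0.094 (SE, edgeR adjusted p = 1.2e-05). *ACAT2*, the cytosolic thiolase that makes acetoacetyl-CoA, was at 58.1, 53.8 and 62.9 CPM in sgCtrl and at 48.4, 45.2 and 50.8 CPM in sg*NF2*-1. Its groups did not overlap but lay close, at -0.28 ± 0.094 (SE, edgeR adjusted p = 0.025), and the call was lost in 5 of 13 alternative settings, with adjusted p from 0.015 to 0.13. On the opposite strand, *TCP1*, with a mean of 4732 counts, shares 9.23% of the *ACAT2* exon bases. *IDI1*, the isopentenyl diphosphate isomerase, was at 32.7, 30.5 and 34.9 CPM in sgCtrl and at 28.3, 25.9 and 27.0 CPM in sg*NF2*-1. Its change of -0.27 ± 0.11 (SE, edgeR adjusted p = 0.047) was at the edge of the threshold, and 7 of 13 alternatives, among them each of the 6 that left out a library, gave an adjusted p above it, up to 0.16.

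The other enzymes of this section overlapped or differed little between the groups. Mevalonate kinase *MVK* had a log2 fold change of -0.14, phosphomevalonate kinase *PMVK* of 0.026, and mevalonate diphosphate decarboxylase *MVD* of 0.11. *FDPS*, the farnesyl diphosphate synthase, was higher in every sg*NF2*-1 library (54.7, 54.0 and 59.6 CPM) than in every sgCtrl library (48.4, 51.4 and 53.9 CPM), but its log2 fold change of 0.13 was not called (edgeR adjusted p = 0.28).

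From squalene to cholesterol, 3 of 11 members fell, beside 16.6% of all tested genes, and 8 were not called. *HSD17B7* (chr1:162790702-162812817), which acts as a sterol ketoreductase, was at 13.2, 15.4 and 17 CPM in sgCtrl and at 10.3, 8.23 and 8.57 CPM in sg*NF2*-1. At 59.6% of sgCtrl it had the lowest ratio of the 31, a log2 fold change of -0.74 ± 0.15 (SE, edgeR adjusted p = 3.2e-04). Its mean of 191.5 counts rests beside 47 counts on its 2 pseudogenes, so reads shared between these near-identical copies make it uncertain. *SQLE*, the squalene epoxidase, was at 28.2, 27.1 and 32.5 CPM in sgCtrl and at 26.6, 19.4 and 22.1 CPM in sg*NF2*-1. The nearest libraries of the groups were close, and its fall of -0.36 ± 0.12 (SE, edgeR adjusted p = 0.024) lost its call without sgCtrl replicate 3, sg*NF2*-1 replicate 2 or sg*NF2*-1 replicate 3, with adjusted p up to 0.16. *MSMO1* (chr4:165327623-165343160), the methylsterol monooxygenase, was at 68.3, 64.3 and 71.5 CPM in sgCtrl and at 55.5, 56.9 and 52.9 CPM in sg*NF2*-1. The groups were apart, at -0.30 ± 0.088 (SE, edgeR adjusted p = 0.0089).

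The 8 uncalled genes of this section ranged from -0.18 to 0.21 in log2 fold change. Below zero were *EBP*, the sterol isomerase, at -0.18, the desaturase *SC5D* at -0.17, the demethylase *CYP51A1* at -0.14, and at -0.016 each squalene synthase *FDFT1* and the sterol reductase *TM7SF2*. Above zero were lanosterol synthase *LSS* at 0.11, the decarboxylating dehydrogenase *NSDHL* at 0.17 and *DHCR7*, the reductase of the last step, at 0.21. *DHCR7* overlapped between the groups, with 88.1, 95.6 and 107 CPM in sgCtrl and 99.7, 111 and 125 CPM in sg*NF2*-1 (edgeR adjusted p = 0.087), and it was called higher without sgCtrl replicate 3 or sg*NF2*-1 replicate 1. *CYP51A1* and *TM7SF2* had the lowest FPKM of the members, at 1.58 and 1.85 in sgCtrl. Their intervals reached from -0.54 to 0.26 and from -0.40 to 0.36, so changes of that size were not detectable at these counts. On the same strand, *AC000120.2*, with a mean of 0 counts, shares 79.4% of the *CYP51A1* exon bases. How reads on those bases were counted is not known, so the level of *CYP51A1* is uncertain.

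Of the 7 fatty acid enzymes, 1 rose, 3 fell and 3 were not called, while 17.7% of all tested genes rose and 16.6% fell. *ACLY* (chr17:41866908-41930542), which makes cytosolic acetyl-CoA from citrate for both routes, was at 299, 313 and 288 CPM in sgCtrl and at 361, 379 and 362 CPM in sg*NF2*-1. Its sg*NF2*-1 values all lay above sgCtrl, with a log2 fold change of 0.29 ± 0.079 (SE, edgeR adjusted p = 0.0051). *ACACA*, the acetyl-CoA carboxylase, went from 87.1 ± 7.99 to 98.1 ± 4.65 CPM (SD, n = 3), and *FASN*, the fatty acid synthase, from 363 ± 28.7 to 418 ± 23.9 CPM. Both lay above sgCtrl in every library without being called, at 0.17 (edgeR adjusted p = 0.13) and 0.20 (edgeR adjusted p = 0.064).

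The 3 that fell elongate or desaturate fatty acids. *SCD* (chr10:100347124-100364834), the desaturase that makes oleate and palmitoleate, was at 642, 664 and 655 CPM in sgCtrl and at 501, 523 and 475 CPM in sg*NF2*-1. This fall to 76.4% (-0.39 ± 0.080, SE, edgeR adjusted p = 5.3e-04) was in the most expressed member. *ELOVL6* (chr4:110045846-110199199), the elongase of palmitate, was at 73.0, 80.4 and 86.1 CPM in sgCtrl and at 54.6, 53.8 and 52.6 CPM in sg*NF2*-1. The sg*NF2*-1 libraries lay within 2 CPM of each other, at -0.57 ± 0.089 (SE, edgeR adjusted p = 1.8e-05). *FADS2* (chr11:61792980-61867354), the delta-6 desaturase of polyunsaturated fatty acids, was at 321, 324 and 322 CPM in sgCtrl and at 208, 225 and 234 CPM in sg*NF2*-1. Its log2 fold change was -0.53 ± 0.079 (SE, edgeR adjusted p = 9.6e-06), with the controls almost identical.

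*FADS1*, the delta-5 desaturase that acts after *FADS2*, lies on the opposite strand within the annotated span of *FADS2* (chr11:61799625-61829318). It was at 181, 191 and 205 CPM in sgCtrl and at 168, 175 and 170 CPM in sg*NF2*-1. All 3 sg*NF2*-1 values were below sgCtrl, but the change of -0.17 was not called (edgeR adjusted p = 0.11). The FPKM ratio of *FADS2* to *FADS1* was 1.65, 1.57 and 1.46 in sgCtrl and 1.15, 1.19 and 1.28 in sg*NF2*-1, with no overlap. Their exons share 490 bases, and without a stated strand setting reads there cannot be told apart. The FPKM ratio of *SCD* to *FASN* likewise went from 3.16 ± 0.276 to 2.09 ± 0.182 (SD, n = 3). These ratios were chosen after the values were seen and are given without a test.

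**Figure D3:**
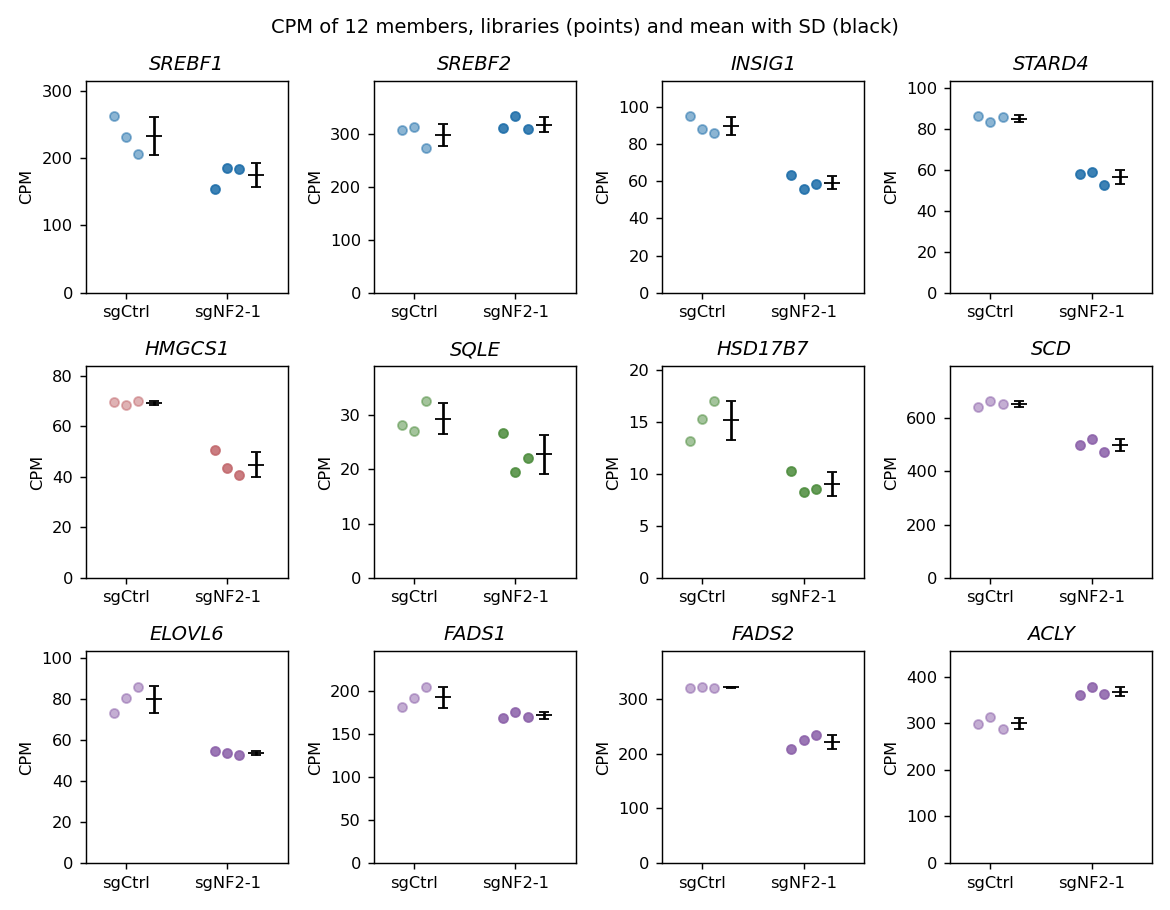
CPM of 12 members in each library (points) with the mean and SD of the 3 libraries per group in black; each vertical axis starts at 0. *INSIG1*, *STARD4*, *HMGCS1* and *FADS2* show wide gaps between the groups, *SREBF2* overlaps, and *ACLY* is higher in sg*NF2*-1.

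Per length of gene, the members spanned 1.58 to 116 FPKM in sgCtrl. *SCD* led at 116 FPKM, followed by *ACLY* at 54.4, *SREBF2* at 37.2, *FASN* at 36.7, *FADS2* at 27.7 and *SREBF1* at 27.5 FPKM. *SREBF2* and *FASN* did not differ beyond their spread (SD 2.64 and 2.95), nor did *FADS2* and *SREBF1* (SD 0.148 and 3.34). Summed over the 31 genes, FPKM was 602 ± 5.40 in sgCtrl and 546 ± 9.58 in sg*NF2*-1 (SD, n = 3), and *SCD* supplied 19.2% ± 0.478 and 16.0% ± 0.945 of it. The regulators summed to 127 ± 7.81 and 106 ± 2.80 FPKM and the fatty acid enzymes to 269 ± 5.81 and 244 ± 6.63 FPKM, without overlap between the groups. Without *SCD* the fatty acid enzymes summed to 153 ± 4.27 and 157 ± 4.26 FPKM, with overlap, so the fall of their sum rests on that gene. The mevalonate route (79.9 ± 4.32 and 73.0 ± 4.17 FPKM) and the section from squalene to cholesterol (127 ± 4.91 and 122 ± 7.20 FPKM) overlapped.

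**Figure D4:**
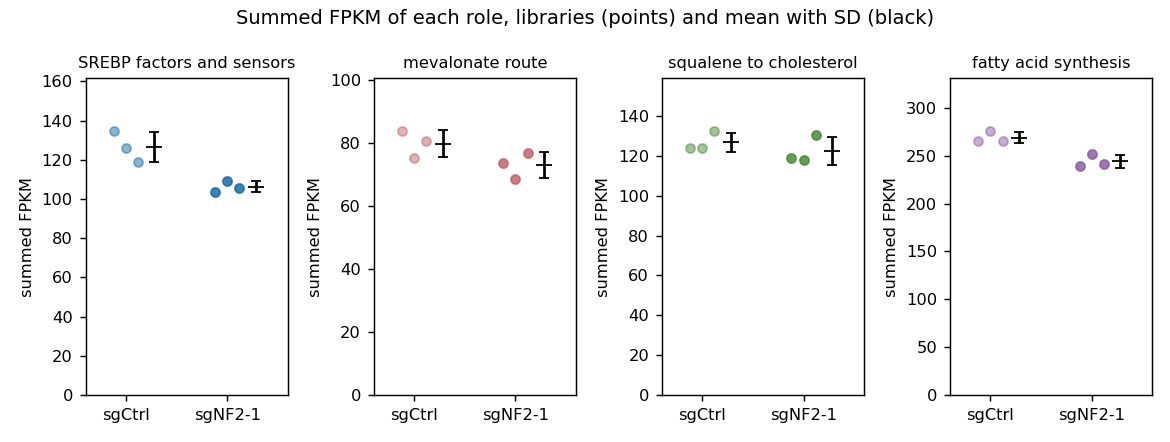
Summed FPKM of each role in each library (points) with mean and SD in black, axes from 0. The regulators and the fatty acid enzymes are lower in sg*NF2*-1 without overlap, and the other roles overlap; without *SCD* the fatty acid enzymes overlap too.

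The rest of the pathway was described from 5 lists of 73 genes. Of the 68 that were tested, 14 were higher (20.6%) and 16 lower (23.5%), against 17.7% and 16.6% of all tested genes, with a median log2 fold change of 0.015. Among 11 genes that process or degrade the SREBPs and their partners, 1 rose (9.09%) and 2 fell (18.2%). *MBTPS1*, the site-1 protease that cuts the SREBPs, went from 201 ± 8.02 to 142 ± 2.02 CPM (-0.51, edgeR adjusted p = 1.7e-05), and *RNF145*, a ubiquitin ligase of the reticulum, from 298 ± 4.53 to 208 ± 16.5 CPM (-0.52, edgeR adjusted p = 2.2e-05).

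Of 11 further sterol and isoprenoid genes, 0 rose and 2 fell (18.2%) in edgeR, beside 17.7% and 16.6% of all tested genes. In the higher direction 2 had an unadjusted p under 0.05, and DESeq2 called 0. Among those that fell was *FAXDC2*, a sterol oxidase homolog, from 16.8 ± 1.87 to 10.9 ± 1.44 CPM (-0.62, edgeR adjusted p = 0.0011). Among 24 tested fatty acid enzymes outside the members, 9 rose (37.5%) and 5 fell (20.8%). The elongases *ELOVL7* (1.97 ± 0.171 to 6.01 ± 1.42 CPM, 1.61) and *ELOVL2* (2.62 ± 0.880 to 5.14 ± 1.51 CPM, 0.97) rose from low levels. Chosen after their values were seen, the elongase *ELOVL1* went from 172 ± 21.1 to 238 ± 12.01 CPM (0.47, edgeR adjusted p = 1.6e-04) and the desaturase family member *FADS3* from 297 ± 8.10 to 417 ± 34.1 CPM (0.49, edgeR adjusted p = 5.1e-05). Picked in the same way, *ELOVL5*, another elongase, fell from 189 ± 3.39 to 164 ± 5.94 CPM (-0.21, edgeR adjusted p = 0.041). So did *ME1*, from 123 ± 4.08 to 103 ± 6.4 CPM (-0.26, edgeR adjusted p = 0.017), and *ACSL3*, from 79.6 ± 7.27 to 62.5 ± 8.14 CPM (-0.35, edgeR adjusted p = 0.0076). With 1 library left out, 1 to 4 genes of this list were called lower. *ACACB*, the mitochondrial acetyl-CoA carboxylase, fell by 0.92 on the log2 scale and the dehydratase *HACD4* by 0.41. *ACACB* was low, at 3.12 ± 0.0802 and 1.63 ± 0.686 CPM, and its FPKM was under the filter of 0.5. The calls of *ACACB*, *HACD4* and *ELOVL2* were each lost without 1 or more libraries, with adjusted p up to 0.12, 0.15 and 0.065 in edgeR.

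Of 17 genes of sterol uptake, transport, esterification and LXR output, 3 rose (17.6%) and 6 fell (35.3%), beside 17.7% and 16.6% of all tested genes. *TMEM97*, a sterol-regulated membrane protein, and *NPC1*, the lysosomal cholesterol exporter, rose by 0.51 and 0.31 on the log2 scale, while *LPCAT3*, a phospholipid acyltransferase, and *ABCA1*, the cholesterol efflux pump, fell by 0.86 and 0.70. The last 2 are known targets of the sterol receptor LXR. Among other such targets in this list, *MYLIP* also fell (-0.645, edgeR adjusted p = 0.0067). *ABCG1* was not called, at 10.1 ± 0.679 and 12.2 ± 1.66 CPM (0.27, edgeR adjusted p = 0.16). Of 5 glycerolipid genes, 1 rose and 1 fell (20% each), beside the same shares of all tested genes. *DGAT2*, which makes triglyceride, rose by 1.22 from 2.01 ± 0.210 to 4.68 ± 0.856 CPM, and *LPIN1*, a phosphatidate phosphatase, fell by 0.40.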

How the data were processed

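RNA was sequenced by the authors as paired-end reads from 3 sgCtrl and 3 sg*NF2*-1 libraries of H2452 cells. Their deposited tables hold unnormalized counts of reads on each gene and FPKM values, made by the authors from those counts, the length of the gene and the depth. The submitters' processing notes name HISAT2, StringTie 1.3.3b, featureCounts 1.5.0-p3 and hg38, and the strand setting is not given in the sources used here. Counts were filtered with filterByExpr (minimum count 10, minimum total 15), normalized by TMM and fitted with edgeR 4.0.16 in R 4.3.3 by group. The authors' own test was DESeq2. FPKM values with a mean of at least 0.5 were tested with limma 3.58.1 on log2(FPKM + 1). Alternatives were DESeq2 1.42.0, its size factors or library totals in edgeR, 2 other filters, protein-coding genes only, a replicate block, leaving out each library in turn and, for FPKM, a pseudocount of 0.1 or no filter. Library totals of 14782423 to 17416463 counts limit the precision of the low genes. On simulated counts, few unchanged genes were called and the count tools returned the simulated folds, while limma on log2(FPKM + 1) understated them. Changed genes of low count were often missed; a recovery mark set at first was not reached by DESeq2 and limma and was replaced after the values were seen.

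The members and all lists were chosen with earlier results of these data known. The text names all members, and from each other list up to 2 called genes per direction, by size of change, with a mean of at least 1 CPM. Some results picked in this way are not reported here. The deposited FPKM and counts of a gene are the same reads, so they are not independent. Promoters came from RefSeq, and only the 250 bases before the start were searched.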

Additional observations from a re-analysis of the deposited data

How the results depend on the processing

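With 3 libraries per group, the exact permutation test of a single gene cannot give a p below 0.1, and genes of low count had wide intervals. Over all alternatives run, 217 of 229 counts and medians stayed within their limits (1.5 times for counts, 1 SD for the median), and 815 of 890 single-gene values kept their direction and their side of the threshold, while 46 calls were lost, 5 were gained and 24 changed sign. DESeq2 called the same numbers of members, 1 higher and 13 lower. Libraries of the same replicate number showed little shared deviation (correlations of deviations -0.032, 0.057 and 0.05). Whether these numbers pair the libraries is not stated in the labels. With the replicate block edgeR called 3 members higher, *DHCR7* and *FASN* being gained, and 13 lower. Over all 14179 tested genes it called 2698 higher and 2501 lower.

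Leaving out 1 library at a time, edgeR called 2016 to 2514 of all genes higher and 1880 to 2271 lower, among 14402 to 14608 tested. Of the members, 1 to 2 were higher and 10 to 12 lower, with 5 to 6 lower beyond the fold limit. The member median ranged from -0.206 to -0.117, the latter without sgCtrl replicate 3. On FPKM 0 to 1 was higher, 0 without sg*NF2*-1 replicate 2, and 8 to 11 were lower, fewer than the 12 with all libraries. In the other lists, leaving out 1 library gave 1 to 3 higher for SREBP processing and 0 to 1 higher for the other sterol enzymes. It gave 1 to 4 lower for the other fatty acid enzymes and 1 to 2 higher for glycerolipid synthesis. The genes whose sign changed were all uncalled: on counts *SCAP* ranged from -0.023 to 0.101, *PMVK* from -0.048 to 0.188 (-0.003 with library totals), *FDFT1* from -0.105 to 0.052, *CYP51A1* from -0.247 to 0.056 and *TM7SF2* from -0.199 to 0.111. On log2(FPKM + 1) the ranges were -0.036 to 0.08, -0.056 to 0.153, -0.114 to 0.03, -0.157 to 0.023 and -0.135 to 0.051. The cause was not tested.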
